A study of Mus musculus with 22 samples.

Results

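Radial glia are the stem cells of the developing brain, and 10 genes known to mark them or neural stem cells were followed here in whole mouse brain: Nes, Vim, Fabp7, Slc1a3, Sox2, Pax6, Tead2, Hes1, Hes5 and Prom1. They were taken by name, as the probes that carry one of these symbols, which gave 10 of the 20679 symbols and 16 of the 41174 probes on the array. Tested animals were titled AGTR2 knockout at E15, lacking the gene of the type 2 angiotensin II receptor, and knockout without a gene name at P1. They were set against animals labelled control. At postnatal day 1 (P1) there were 4 knockout and 4 control animals on 8 dual-colour arrays, and at embryonic day 15 (E15) there were 8 knockout and 6 control animals on 14 arrays. The control of each pair shared the array with its knockout, and the 6 E15 controls served 8 knockout replicates. E15 knockouts 1 and 2 met a different control in each dye orientation, controls 6 and 1 for knockout 1 and controls 3 and 2 for knockout 2. RNA was extracted from slices of whole brain that had been frozen. The knockout allele and the strain, sex and litter of the animals are not given in the sources used here.

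Radial glia line the ventricles, divide to give rise to neurons, and around birth many of them turn into astrocytes, the support cells of the brain. Some of their genes, such as those for the glutamate transporter Slc1a3 and the fatty acid carrier Fabp7, stay active in astrocytes, while others, such as the intermediate filament gene Nes, are shut down as the cells mature. Notch signalling keeps radial glia undifferentiated: a ligand on a neighbouring cell activates a Notch receptor, whose cleaved inner part joins the DNA-binding protein RBPJ and switches on repressor genes, among them Hes1 and Hes5. E15 falls within neuron production in the mouse cortex, and P1 lies near its end and at the start of astrocyte production.

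The sequences just before the transcription start are shown for the genes that fell most in level with age, Vim and Tead2, for the pair that rose, Fabp7 and Slc1a3, and for the Notch target Hes5. They are RefSeq sequences of assembly GRCm38.p6, each the 250 bases that end just before the start, and capitals mark 3 motifs searched on both strands: TGGGAA or TTCCCA, the core bound by RBPJ, ACAAT or ATTGT, the core bound by SOX proteins, and CCAAT or ATTGG, bound by NF-Y. No matches overlapped in the windows printed.
Vim (chr2:13574061-13574310, plus strand): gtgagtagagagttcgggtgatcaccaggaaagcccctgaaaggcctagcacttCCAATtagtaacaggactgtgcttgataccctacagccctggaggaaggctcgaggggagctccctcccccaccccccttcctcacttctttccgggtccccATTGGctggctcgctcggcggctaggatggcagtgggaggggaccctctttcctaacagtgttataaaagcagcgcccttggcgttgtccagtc
Tead2 (chr7:45215542-45215791, plus strand): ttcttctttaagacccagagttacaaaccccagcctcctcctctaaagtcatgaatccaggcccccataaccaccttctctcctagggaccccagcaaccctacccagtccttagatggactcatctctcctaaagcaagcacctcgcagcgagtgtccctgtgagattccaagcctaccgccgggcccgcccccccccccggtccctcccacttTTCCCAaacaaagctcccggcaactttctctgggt
Fabp7 (chr10:57784673-57784922, plus strand): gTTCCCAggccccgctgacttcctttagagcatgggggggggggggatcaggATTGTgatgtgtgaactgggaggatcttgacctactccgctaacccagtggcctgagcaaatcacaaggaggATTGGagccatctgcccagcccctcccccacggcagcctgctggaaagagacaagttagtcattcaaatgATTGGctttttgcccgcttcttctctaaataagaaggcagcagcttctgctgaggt
Slc1a3 (chr15:8710808-8711057, minus strand): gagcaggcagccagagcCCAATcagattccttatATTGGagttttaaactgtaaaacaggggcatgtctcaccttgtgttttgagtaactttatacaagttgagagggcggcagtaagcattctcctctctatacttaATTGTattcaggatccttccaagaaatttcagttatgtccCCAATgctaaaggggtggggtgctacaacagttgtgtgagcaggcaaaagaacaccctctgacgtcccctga
Hes5 (chr4:154960673-154960922, plus strand): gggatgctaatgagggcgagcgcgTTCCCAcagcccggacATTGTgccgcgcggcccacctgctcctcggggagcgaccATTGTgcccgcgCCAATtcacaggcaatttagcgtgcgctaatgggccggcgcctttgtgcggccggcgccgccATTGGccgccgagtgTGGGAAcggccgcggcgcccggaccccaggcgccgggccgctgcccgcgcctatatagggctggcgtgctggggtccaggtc

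RefSeq's table held 9 of the 10 genes in 11 windows, with Hes1 not matched and Pax6 and Prom1 entered with more than 1 start. The Hes5 window held the RBPJ core in both orientations, and 2.77% of all 32851 windows of that length held it at least 2 times. Fabp7 and Tead2 had 1 match each, as did 1 window of Prom1, so that 4 of the 11 windows held this core, against 21.6% of all windows. The CCAAT core stood in 7 of the 11 windows, 3 times in that of Slc1a3 and not in those of Nes and Tead2, against 33.8% of all windows. The SOX core stood in 5 of the 11, against 27.7% of all windows. A match gives only the letters and is no measurement of binding.

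The level of Agtr2, the targeted gene, did not check the labels. Its log2 knockout over control ran from -0.13 to 0.29 at P1 (mean 0.11, adjusted p = 0.716, limma, n = 4) and from -2.10 to 0.87 at E15 (mean -0.40, adjusted p = 0.771, n = 8), and whether its probe lies in the deleted part is not known. The E15 extremes were replicates 4 and 8, where the median ratios of 14 skeletal muscle genes were -3.34 and 3.05. Signs of Agtr2 and that median were opposite only in replicate 7 (-0.0008 and 0.045). The part of muscle tissue in the Agtr2 values was not tested. The median signal of a channel ran from 58.9 to 160.8 units at P1 and from 68.8 to 158.3 at E15, and between 62.3% and 95.1% of spots were well above background at P1, against 68.6% to 93.0% at E15. Between 287 and 3343 spots of an array were left out as outliers at P1, against 52 to 381 at E15. Nes, Sox2, Fabp7 and Hes5, which mark neural tissue, were well above background in both channels of all 22 arrays. E15 knockout 8 and E15 control 1 stood apart through genes of tissue outside the brain. The median level of 14 skeletal muscle genes, set against the E15 control mean, was 2.16 (log2) in E15 knockout 8 and 3.10 in E15 control 1, against -1.30 to 0.42 in the other E15 animals. For some of the results that rest on these animals, values without them are also given. All P1 arrays were scanned on a day of their own with a later version of the scanner software, so age cannot be told apart from these 2 features of the scans.

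**Figure D1:**
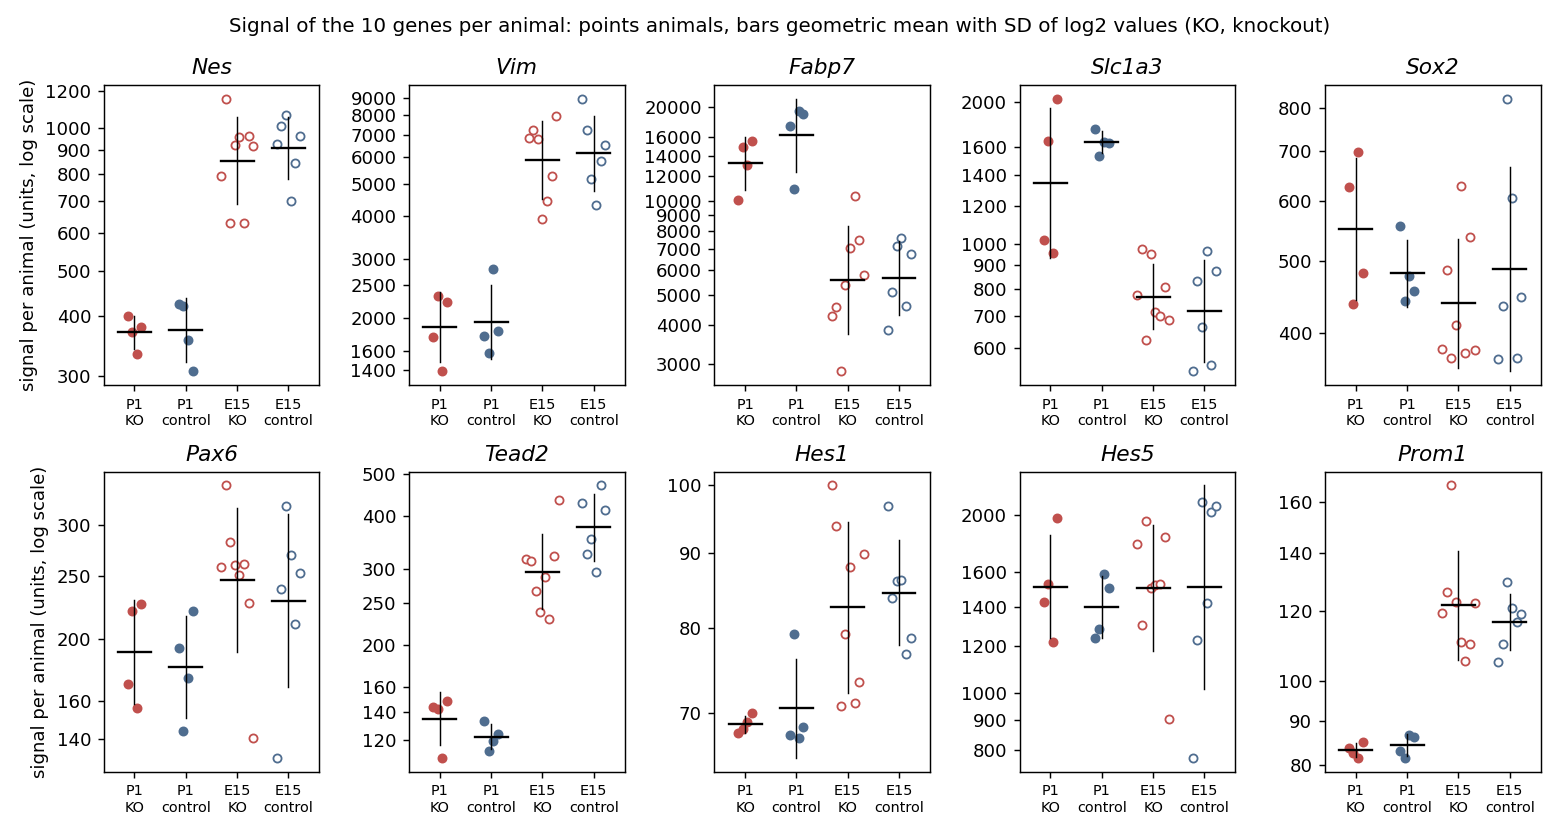
Signal of each of the 10 genes per animal (vertical axes, log scale, in units of background-corrected signal with an offset of 50), for P1 knockout, P1 control, E15 knockout and E15 control animals from left to right. Points are animals, horizontal bars geometric means and vertical bars 1 SD of the log2 values. Nes, Vim, Tead2 and Prom1 lie lower in every P1 animal than in any E15 animal, while Fabp7 and Slc1a3 lie higher in P1 controls than in E15 controls.

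The first question was how the level of each gene in control animals at P1 compared with that at E15. The 10 genes did not move as one. Vim, Tead2, Nes and Prom1 were lower at P1, Fabp7 and Slc1a3 were higher, Hes1 was lower by a small step, and Sox2, Hes5 and Pax6 did not pass the test. In controls 7 of the 10 genes passed at an adjusted p under 0.05 (limma, Benjamini-Hochberg over 24393 features), where 34.5% of all features were called. Of the 7, 5 were lower and 2 higher, where 22.8% of all features were called lower and 11.8% higher. The median change of the 10 was -0.30, against -0.09 over all features. In bulk tissue, fewer cells of a type and less RNA per cell cannot be told apart. P1 and E15 controls did not overlap for 6 of the 10 genes, against 26.5% of all features. For Nes, Vim, Tead2 and Prom1, 4 of the 10, every P1 animal of either genotype lay below every E15 animal, as it did for 5.65% of all features.

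Nes and Vim encode nestin and vimentin, proteins of the intermediate filaments that run along the processes of radial glia. The 4 P1 controls had Vim signals of 1764, 1572, 2800.2 and 1826 units, and the 6 E15 controls had a lowest of 4334, a median of 6172 and a highest of 8952. Every P1 control lay below every E15 control. The change was -1.67 (log2, SE 0.21, adjusted p = 3.3e-04), a 3.18-fold lower level. Vimentin is also made by fibroblasts and muscle precursors. In the same comparison 12 of 12 genes of meninges and fibroblasts lay below 0 (7 called lower, median -1.29). So did 11 of 11 tested skeletal muscle genes (1 called lower, median -1.19), where 22.8% of all features were called lower. Without E15 control 1, the control highest in both lists, the Vim change was -1.56, and the part of these tissues in it was not tested. In knockout animals, which the control comparison does not use but which share its arrays, P1 Vim signals were 1753, 2316, 1387 and 2226, against 3936, 6797 and 7931 (lowest, median and highest of 7) at E15, again without overlap (-1.65, SE 0.21, adjusted p = 4.2e-04). Averaged with the second, dim Vim probe the change was -0.84 in controls (adjusted p = 3.2e-04) and -0.41 in knockout animals, where the call was lost (adjusted p = 0.63) and E15 knockout 1 rests on the dim probe alone. E15 knockout 1 has no Vim value, because its spots were marked as outliers. For the same reason P1 replicates 2 and 4 and E15 replicates 6 and 7 were read in 1 dye orientation. Nes was read by 1 probe and had signals of 425, 421, 357 and 306 in P1 controls, against a lowest of 700.5, a median of 943 and a highest of 1068 in E15 controls. Its groups did not overlap either, and the change was -1.28 (SE 0.13, adjusted p = 1.2e-04), a 2.43-fold lower level. In knockout animals Nes had 401, 371, 332 and 380.3 at P1, against 631, 919 and 1154 (lowest, median and highest) at E15, a change of -1.21 (SE 0.15, adjusted p = 2.8e-04). The second probe of Vim, A_52_P287532, was not well above background on any array and is not read as a level.

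Tead2, a partner of the growth regulator YAP on DNA that is active in neural progenitors, was the member with the lowest adjusted p. Its signals were 133, 114, 119.9 and 124 in P1 controls, against a lowest of 295, a median of 383 and a highest of 470.2 in E15 controls. The P1 values lay close together and far below all E15 values. The change was -1.62 (SE 0.13, adjusted p = 3.6e-05), a 3.07-fold lower level, and it was -2.26 with the scanner's own processed signals, which carry no offset. In knockout animals Tead2 had 143, 142, 109 and 148 at P1, against 230.4, 301 and 434 (lowest, median and highest) at E15, a change of -1.13 (SE 0.15, adjusted p = 4.3e-04). The second Tead2 probe also lay lower at P1, by -0.92 in controls and -0.69 in knockout animals. Prom1, which encodes the membrane protein prominin 1 (CD133) of the ventricular surface, was dim. It had 83.1, 81.5, 86.7 and 86.1 in P1 controls, against 105, 118 and 129.8 (lowest, median and highest) in E15 controls, with no overlap. Its change was -0.47 (SE 0.07, adjusted p = 7.4e-04), and -0.55 in knockout animals (SE 0.11, adjusted p = 0.0032). The second Prom1 probe gave -0.51 and -0.52. With the scanner's processed signals the Prom1 changes were -0.92 in controls and -1.10 in knockout animals, further from 0 than with the offset of 50.

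Fabp7 encodes the brain fatty acid-binding protein, which carries lipids in radial glia and astrocytes, and had the most positive change of the 10 genes. P1 controls had signals of 17395, 10919, 19431 and 19008, against a lowest of 3854, a median of 5926 and a highest of 7600.0 in E15 controls. The controls did not overlap, and P1 control 2 was the lowest of the P1 values. P1 replicates 2 and 3 were read in 1 dye orientation, because a spot of each was marked as an outlier. The change was 1.52 (SE 0.22, adjusted p = 7.6e-04), a 2.87-fold higher level. In knockout animals Fabp7 had 10084, 14954, 13092 and 15553 at P1, against 2843, 5588 and 10414 at E15, where knockout 6 reached into the P1 range (1.24, SE 0.28, adjusted p = 0.0073). The call did not hold in 2 other settings. With each channel scaled only to its 75th percentile, a setting chosen after seeing the data, the Fabp7 change was 0.73 in controls (adjusted p = 0.067) and 0.51 in knockout animals (adjusted p = 0.39). With the scanner's processed signals it was 0.79 (adjusted p = 0.065) and 0.61 (adjusted p = 0.25), so the call was lost in both settings while the direction was kept.

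Slc1a3 encodes the glutamate transporter GLAST of radial glia and astrocytes. Its signals were 1755, 1538, 1641 and 1635 in P1 controls, against 535, 749 and 966 (lowest, median and highest) in E15 controls. The P1 controls lay close together and above all E15 controls. The change was 1.19 (SE 0.17, adjusted p = 6.1e-04), a 2.28-fold higher level. Unlike that of Fabp7, its call was kept with 75th percentile scaling, at 0.88 (adjusted p = 0.0047), and with the scanner's processed signals, at 0.98 (adjusted p = 0.0057). In knockout animals Slc1a3 had 1017, 1655, 957 and 2033 at P1, against 624.6, 746 and 974 at E15. P1 knockout 3 fell within the E15 range and P1 knockout 1 lay just above it, and the change was 0.80 (SE 0.20, adjusted p = 0.011). The second Slc1a3 probe, made to another accession and dim, gave 0.01 in controls and 0.05 in knockout animals, so the rise was read by 1 of 2 probes.

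**Figure D2:**
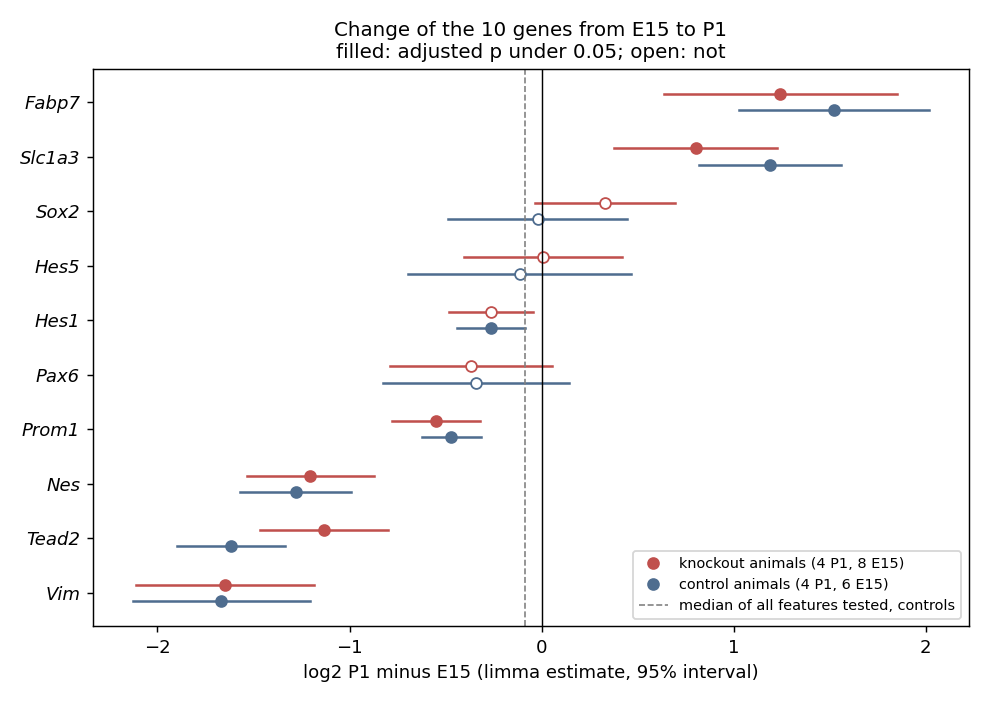
Change from E15 to P1 (log2, horizontal axis) for the 10 genes, in knockout animals (red, upper) and control animals (blue, lower), as limma estimates with 95% intervals. Filled points passed at an adjusted p under 0.05, and the dashed line marks the median of all features in controls, -0.09. Fabp7 and Slc1a3 lie right of 0, Vim, Tead2, Nes and Prom1 left of it, and Sox2, Hes5 and Pax6 are open in both genotypes.

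Sox2 and Pax6 encode transcription factors that keep neural stem cells dividing, and Sox2 stays on in astrocytes. Sox2 had signals of 557, 441, 478 and 455 in P1 controls, against 370.0, 442 and 823 (lowest, median and highest) in E15 controls. The P1 values lay inside the wide E15 range, and the change was -0.02 (95% interval -0.48 to 0.45, adjusted p = 0.955). In knockout animals Sox2 had 628, 438, 698 and 481 at P1, against 371, 396 and 629 at E15 (0.33, interval -0.04 to 0.70, adjusted p = 0.172). Pax6 had 193, 144, 174 and 221 in P1 controls, against 131, 246 and 321 in E15 controls, where the lowest value came from control 1. Its change was -0.34 (interval -0.83 to 0.14, adjusted p = 0.251) with all animals and -0.50 (adjusted p = 0.021) without E15 control 1. In knockout animals Pax6 had 170.4, 221, 156 and 226 at P1, against 140.02, 259 and 346 at E15, a change of -0.37 (adjusted p = 0.184) with all animals and -0.49 (adjusted p = 0.017) without knockout 8. Each animal left out held the lowest Pax6 signal of its E15 group, so leaving it out could only lower the change. Of all fits with 1 animal left out, Pax6 passed in 1 of 10 in controls and 1 of 12 in knockout animals. No conclusion is drawn from these fits. A further Pax6 probe that was well above background gave -0.12 and -0.06.

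Hes1 and Hes5 encode the repressors that Notch signalling switches on. Hes5 had signals of 1238, 1283, 1589 and 1504 in P1 controls, against 776, 1722 and 2099.6 in E15 controls. The ranges overlapped, with the lowest E15 value again from control 1, and the change was -0.11 (interval -0.69 to 0.46, adjusted p = 0.764). Without control 1 it was -0.31 (adjusted p = 0.192). In knockout animals Hes5 had 1422, 1528, 1219 and 1977 at P1, against 904, 1525 and 1950.4 at E15, a change of 0.01 (interval -0.40 to 0.42, adjusted p = 0.982). Hes1 was dim, with 67.6, 79.2, 67.3 and 68.5 in P1 controls, against 76.8, 85.0 and 96.9 in E15 controls, and 3 of the 4 P1 controls lay below all E15 controls. Its change was -0.26 (SE 0.08, adjusted p = 0.028), and the call was lost without E15 control 3 or P1 control 1, 3 or 4 (adjusted p up to 0.080) and with 75th percentile scaling (-0.13, adjusted p = 0.44). In knockout animals Hes1 had 67.8, 68.2, 69.0 and 69.96 at P1, against 70.7, 83.6 and 100.01 at E15, without overlap (-0.26, SE 0.10, adjusted p = 0.072), and it passed without E15 knockout 3 or 6 (adjusted p = 0.043 and 0.049). With the scanner's processed signals Hes1 was lower in both genotypes, by -0.89 in controls (adjusted p = 0.011) and -0.82 in knockout animals (adjusted p = 0.036). It was well above background in 7 of 8 P1 control channels and 4 of 8 P1 knockout channels, against all 14 of each genotype at E15, so that part of its P1 levels lay at background.

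The knockout animals gave an age comparison of their own, in which 6 of the 10 genes passed, where 24.9% of all features were called. The 6 were Vim, Nes, Tead2 and Prom1, lower where 15.3% of features were called lower, and Fabp7 and Slc1a3, higher where 9.58% were called higher. P1 and E15 knockout animals did not overlap for 5 of the 10 genes, all lower at P1, where 9.43% of all features lay apart in that direction. Of the 4 genes that textbook knowledge places also in astrocytes, namely Slc1a3, Fabp7, Vim and Sox2, 2 were higher, 1 lower and 1 not called in controls, with a median change of 0.59. Of the other 6, 4 were lower and 2 not called, with a median of -0.41. The genes that rose, Fabp7 and Slc1a3, were thus of the astrocyte group, and none of the other 6 was called higher. Vim, though also an astrocyte gene, had the most negative change of the 10, so the division by later astrocyte use did not fully separate falls from rises. Vimentin is also made by fibroblasts and muscle precursors, whose part in its fall was not tested.

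Other genes of the same cells and pathway were read from lists chosen with earlier results of these data known. In the control comparison 22.8% of all features were called lower and 11.8% higher. Among Notch ligands, 4 of 5 were lower at P1 in controls, with a median of -0.74: Jag1 at -0.82 (SE 0.19), Dll3 at -0.80 (SE 0.15), Dll1 at -0.74 (SE 0.17) and Jag2 at -0.41 (SE 0.12), with adjusted p from 0.0030 to 0.021. Dll4, known mainly from blood vessels, had -0.12. A dimmer Jag1 probe gave 0.06. Among receptors, Notch3 (-0.50), Notch4 (-0.42) and Notch2 (-0.28) were lower and Notch1 was higher at 1.63 (SE 0.25, adjusted p = 0.0011), but the second Notch1 probe, well above background throughout, gave -0.14. Rbpj, the DNA-binding partner of cleaved Notch, was lower at -1.03 (SE 0.09, adjusted p = 6.0e-05), as were the co-activator Maml1 (-0.65) and the glycosyltransferase Mfng (-1.11), while the other 7 of 10 modifiers were not called. Of 7 other targets, 3 were lower, Id4 at -1.17 (SE 0.17), Hes6 at -0.83 (SE 0.26) and Heyl at -0.55 (SE 0.09), and 4 were not called. A dimmer Heyl probe gave 0.05. Of the Notch targets among the 10 genes, Hes1 was called lower at -0.26, while Hes5 was not called, at -0.11 with a wide 95% interval (-0.69 to 0.46).

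Of 24 other genes known from radial glia, 19 were tested, of which 7 were lower and 4 higher in P1 controls, with a median of -0.34. Over all features 22.8% were called lower and 11.8% higher, the shares to set beside each list count here. Fgfr3, a growth factor receptor of radial glia and astrocytes, had 2.40 (SE 0.11, adjusted p = 1.2e-06), although its other probe well above background throughout gave 0.33. The brightest probe of Ptprz1, a receptor phosphatase, was saturated on part of the arrays, and its other probes well above background throughout gave 1.096 and 1.63. Mfge8 and Ttyh1 had 0.86 and 0.76. The most negative called change of this list was -0.66, of the surface protein Cd24a. Among 17 astrocyte genes tested, 12 were higher and 0 lower (median 0.88), led by Apoe, a lipid carrier, at 2.98 (SE 0.22). Among 16 genes of dividing cells, 15 were lower (median -0.94), led by the replication helicase subunit Mcm3 at -1.48 (SE 0.17). Fabp7 and Slc1a3 thus lay on the side of the astrocyte list, but also on that of 12 genes of neurons (8 higher, median 1.07). Nes, Vim and Tead2 lay on the side of the list of dividing cells, but also on that of the meninges and fibroblasts list (7 of 12 lower, median -1.29). The part of any of these cell types in the changes was not tested.

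**Figure D3:**
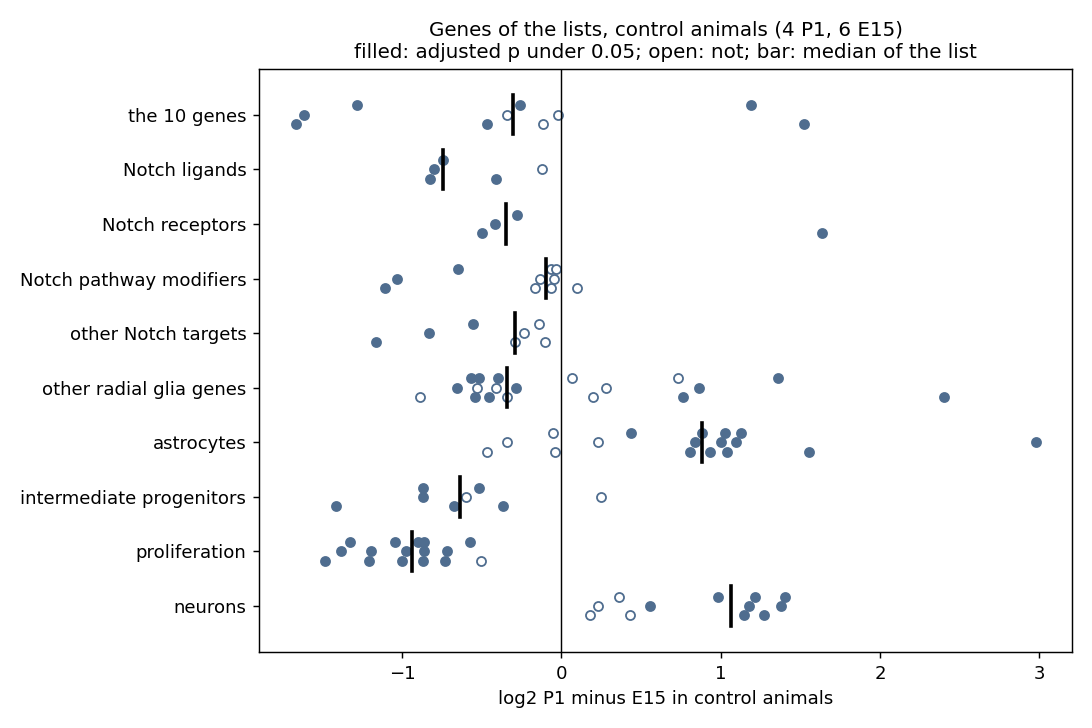
Change from E15 to P1 in control animals (log2, horizontal axis) for the 10 genes and for other lists, 1 point a gene, filled where the adjusted p was under 0.05, with a bar at the median of each list. The 10 genes spread from -1.67 to 1.52, the astrocyte genes centre on 0.88 and the genes of dividing cells on -0.94.

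By likeness over all animals, measured as the root mean square difference of log2 levels after subtraction of each gene's E15 control mean, Tead2 had the closest partner relative to the bulk of genes. Cenpa, a histone of the centromere, differed from Tead2 by 0.17 over 22 animals, where the median over 18075 genes was 0.94. The gene nearest to Nes was Cdca8, also of the centromere (0.23, against a median of 0.77), and that nearest to Vim was Elavl1, an RNA-binding protein (0.32, against 1.05, over 21 animals). For Fabp7 it was Fgf12 (0.33, against 1.01) and for Slc1a3 Cyp2j9 (0.26, against 0.79). Among the 10 genes themselves, Tead2 was nearest to both Nes (0.33) and Vim (0.36), and Fabp7 and Slc1a3 were nearest to each other (0.46). Sox2, Pax6 and Hes5 had partners (Trnt1 0.23, Vta1 0.25, Fbxl15 0.23) against 0.42 to 0.44 for the median gene. The dim genes Hes1 and Prom1 lay nearest to Kif7 (0.08) and Hoxa3 (0.11), where the offset narrows all differences. These values describe the animals as a set, which share arrays and 2 ages, and carry no test.

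The second question was whether any of the 10 genes differed between knockout and control animals of an age. None was called at P1 or at E15. At P1, limma called 0 of 23336 features (0% of features; 9.26% had an unadjusted p under 0.05) and 0 of the 10 genes. At E15 it called 0 of 24050 features (0%; 6.94% at an unadjusted p under 0.05) and 0 of the 10. The median log2 knockout over control of the 10 genes was -0.02 at P1, against 0.01 over all features, and 0.01 at E15, against -0.01. In simulated data with the spread of the real replicates, 53.9% of changes of 0.5 and 82.1% of changes of 1 (log2) were recovered at P1, and 68.6% and 91.8% at E15. There were 13 false calls at P1 and 16 at E15. Changes were planted in many features at once with independent noise, unlike the real data, where no feature was called. The rates pool all features. They do not hold for genes with a wide spread, such as Vim at P1 (SE 0.26) or Hes5 at E15 (SE 0.24).

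**Figure D4:**
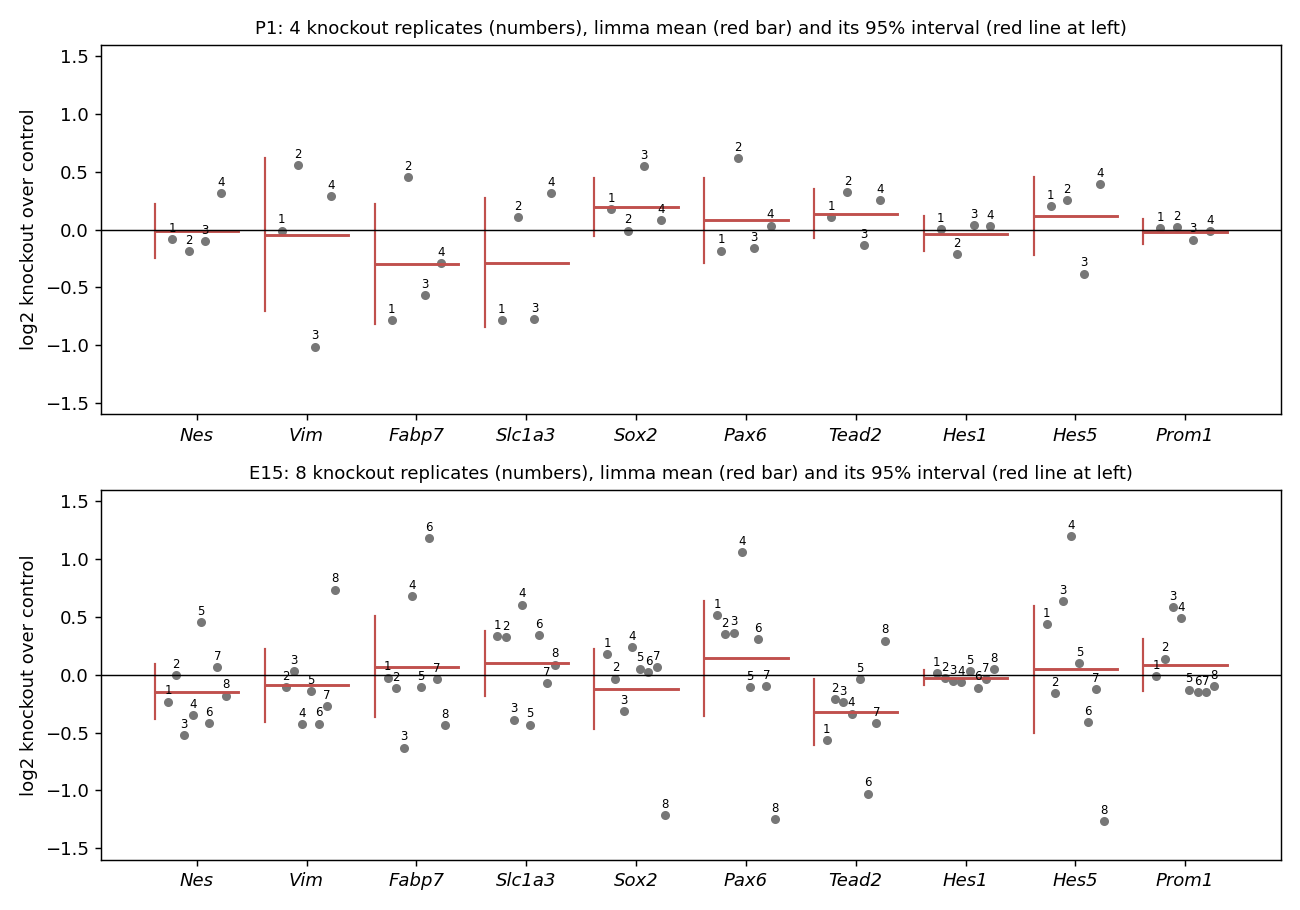
Log2 knockout over control of the 10 genes per replicate (numbered points), at P1 above and E15 below, with limma means (red bars) and their 95% intervals (red lines at the left). At E15, replicate 8 lies far below the others for Sox2, Pax6 and Hes5, and Tead2 lies below 0 in 7 of 8 replicates.

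Tead2 had the lowest unadjusted p of the 10 genes at E15. Its log2 knockout over control was -0.57, -0.21, -0.24, -0.34, -0.04, -1.03, -0.42 and 0.30 in replicates 1 to 8. It lay below 0 in 7 of 8, with replicate 6 lowest and replicate 8 alone above 0, and the mean was -0.32 (SE 0.13, unadjusted p = 0.033, adjusted p = 0.712, n = 8). At P1 it was 0.11, 0.32, -0.14 and 0.26, above 0 in 3 of 4, with a mean of 0.14 (SE 0.09, adjusted p = 0.664, n = 4). The difference between the ages, P1 minus E15, was 0.46 (SE 0.20, unadjusted p = 0.037, adjusted p = 0.967), and 0 of 22092 features were called in that comparison (0%; 4.46% at an unadjusted p under 0.05). Leaving out single replicates moved the E15 mean between -0.41 and -0.22, with -0.22 reached without replicate 6. The list of dividing cells, whose direction with age Tead2 shared, lay below 0 for 15 of 16 genes at E15 with a median of -0.11, and none of its genes was called. Its medians in E15 replicates 1 to 8 were -0.26, 0.15, 0.45, -0.58, -0.22, -0.43, 0.05 and -0.13. Those of the choroid plexus list were 0.06, 0.17, 0.39, 0.77, -0.38, -1.25, 0.07 and -0.32. Both lists thus had the sign of Tead2 in some replicates and the opposite sign in others. The part of either list in the Tead2 values was not tested. Replicates 1 to 4 were scanned on another day than replicates 5 to 8, and the Tead2 mean was -0.34 within the first set (adjusted p = 0.194) and -0.30 within the second (adjusted p = 0.870).

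Sox2, Pax6 and Hes5 had their E15 extremes in the same replicates. Sox2 ran from -1.22 (replicate 8) to 0.24 (replicate 4), with a median of 0.04. Pax6 ran from -1.25 (replicate 8) to 1.06 (replicate 4), with a median of 0.33, and Hes5 from -1.27 (replicate 8) to 1.198 (replicate 4), with a median of -0.01. Knockout 8 itself had a Sox2 signal of 380.5 units, inside the range of the other E15 knockout animals, and its control on the array, control 3, had the highest Sox2 signal of the E15 controls, 823. For Pax6 and Hes5, knockout 8 was the lowest E15 knockout animal, at 140.02 units (227 in the next) and 904 (1301 in the next). Control 3 was also the highest E15 control for Pax6 (321) and Hes5 (2099.6). In all 3 genes the replicates fell on both sides of 0, and the means were -0.12 (SE 0.15), 0.14 (SE 0.22) and 0.05 (SE 0.24), with adjusted p from 0.843 to 0.971. In replicate 8 the forebrain list had a median of -1.69, the skeletal muscle list 3.05 and the meninges and fibroblasts list 2.76. In replicate 4, which was hybridised against control 1, the skeletal muscle list had -3.34 and the meninges list -2.43. Within the scan day of replicates 1 to 4, Pax6 averaged 0.57 and Hes5 0.53, and within the scan days of replicates 5 to 8 they averaged -0.29 and -0.42, of the opposite sign. The part of these tissues in the values of Sox2, Pax6 and Hes5 was not tested. With replicates 1, 4 and 8 left out, a choice made after seeing the data, the means were -0.04 for Sox2, 0.16 for Pax6 and 0.01 for Hes5 (adjusted p from 0.768 to 0.993, n = 5).

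Fabp7 and Slc1a3, the transport genes that were higher at P1, shared the sign of their log2 knockout over control in 3 of the 4 P1 replicates. Slc1a3 had -0.79, 0.11, -0.78 and 0.31 in P1 replicates 1 to 4, and Fabp7 had -0.79, 0.45, -0.57 and -0.29. Replicates 1 and 3 were below 0 for both genes and replicate 2 above 0 for both, while in replicate 4 Slc1a3 was above 0 and Fabp7 below. The means were -0.29 (SE 0.22, adjusted p = 0.738) for Slc1a3 and -0.30 (SE 0.21, adjusted p = 0.701) for Fabp7. The astrocyte list had medians of -0.57, 0.09, -0.38 and 0.10 in the same replicates, and 16 of its 17 genes lay below 0 at P1 (median -0.20), with 0 called. The hindbrain and cord list had -0.63, 0.32, -0.98 and 0.31, and the forebrain list 0.61, -0.49, 0.88 and -0.17. In P1 replicates 1 and 3 the knockout thus had less of the hindbrain genes than its control and also less Slc1a3. The part of the brain region taken was not tested. In replicates 2 and 4 alone, a choice made after seeing the data, the means were 0.21 for Slc1a3 and 0.08 for Fabp7, of the opposite sign. At E15 Slc1a3 ran from -0.43 to 0.61 (median 0.21, mean 0.10, SE 0.12) and Fabp7 from -0.63 to 1.18 (median -0.07, mean 0.07, SE 0.19), both on both sides of 0. In E15 replicates 1 to 8 Slc1a3 was 0.33, 0.33, -0.39, 0.61, -0.43, 0.35, -0.07 and 0.09. The hindbrain and cord list was -0.43, -0.13, 0.32, 0.41, 0.17, -0.01, -0.53 and 1.01 there, of the same sign in some replicates and of the opposite sign in others.

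**Figure D5:**
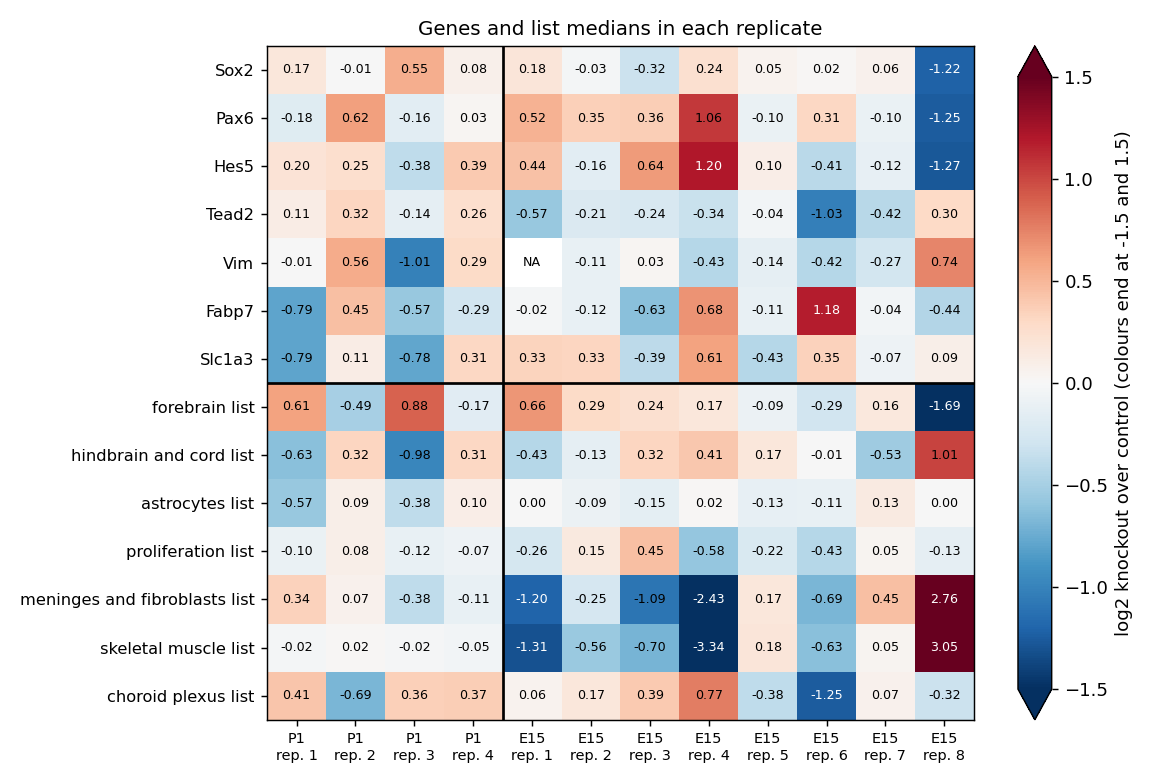
Log2 knockout over control in every replicate (columns, P1 left and E15 right) for 7 of the genes (upper rows) and as medians of marker lists (lower rows). Red is higher and blue lower in the knockout animal. Sox2, Pax6 and Hes5 are low in E15 replicate 8, where muscle and meninges genes are high, and Fabp7 and Slc1a3 are low in P1 replicates 1 and 3, where hindbrain and astrocyte genes are low.

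The remaining genes showed small or scattered values. Nes had -0.08, -0.18, -0.10 and 0.31 at P1 (mean -0.01, SE 0.09, adjusted p = 0.978), and at E15 it ran from -0.52 to 0.45 with a median of -0.21 (mean -0.15, SE 0.10, adjusted p = 0.757). Vim had -0.01, 0.56, -1.01 and 0.29 at P1 (mean -0.04, SE 0.26, adjusted p = 0.977), where replicate 3 was far below the rest. At E15 Vim ran from -0.43 to 0.74 over 7 replicates (mean -0.09, SE 0.14, adjusted p = 0.875), with replicate 8 highest. The meninges and muscle lists were highest in the same replicate. Prom1 stayed between -0.09 and 0.02 at P1 and between -0.15 and 0.58 at E15, where replicates 3 and 4, each read in 1 dye orientation, were the highest. Hes1 stayed between -0.21 and 0.04 at P1 and between -0.11 and 0.05 at E15, a narrow range in which the offset has a part, as both are dim probes. At P1 Sox2 lay between -0.01 and 0.55 (mean 0.20, SE 0.10, adjusted p = 0.597), Pax6 between -0.18 and 0.62 and Hes5 between -0.38 and 0.39. Over the 10 genes the differences of the knockout effect between the ages ran from -0.38 (Slc1a3) to 0.46 (Tead2), with adjusted p from 0.967 to 0.994.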

How the data were processed

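RNA of whole mouse brain was hybridised to 22 dual-colour Agilent arrays, 8 of P1 and 14 of E15. The deposited scanner files hold spot intensity values per channel, background intensity, log10 ratios and flags for outlier spots and for spots well above background, written by Agilent Feature Extraction 8.5.1.1 (P1) and 8.1.1.1 (E15), per the file headers. The deposited value table holds log10 ratios of red over green. No column of another series was found (0 other columns).

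Mean signals were background-corrected with normexp (offset 50) and loess-normalised within arrays in limma 3.58.1 (R 4.3.3, statmod 1.5.0), leaving out outlier spots. Ratios were converted to log2 knockout over control and averaged over the dye orientations of a replicate. Where 1 orientation was missing, the mean dye effect of the probe was subtracted. It was taken from replicates with both orientations, among them E15 replicates 1 and 2, where dye and control animal cannot be told apart. For E15, replicates that share controls formed a random block. Levels for the age comparison were scaled between arrays by Aquantile and averaged per animal, and the ages were compared within each genotype. A gene was read by its brightest probe, kept if at least 50% of the channels of an age were well above background. Adjusted p-values are Benjamini-Hochberg over all features, with a threshold of 0.05. The number of arrays limits the precision. Procedures were tested on simulated data.

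Groups, dyes and control animals came from the titles and channel labels. Nothing says whether animals of a group shared litters, so p-values measure the spread between these samples. P1 files give accessions in place of symbols, so probes were named through the E15 files, and 33104 of 41174 probes had a symbol. Same-numbered animals of the 2 ages correlated between -0.15 and 0.23 in their deviations, so replicate numbers were not taken as pairs. Alternatives were the scanner's processed signals, the deposited ratios, no filter, outlier spots kept, the mean over probes, other scalings between arrays, blocks by scan day and replicate, replicates with both orientations only, 75th percentile scaling (added after seeing the data) and each replicate left out. The genes and lists were chosen with earlier results of these data known. All 10 genes were named, with the most positive and most negative called gene of each other list, the Notch ligands, receptors and targets, and the nearest gene by likeness. Rbpj, Maml1, Ptprz1, Mfge8 and Ttyh1 were named after their values were seen.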

Additional observations from a re-analysis of the deposited data

Results flagged for a closer look

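Of 60 groups of values tested for 1 sample far from the rest, 7 held one, and chance gives about 1 in 20 groups if they are independent. These groups were not, as signals and ratios came from the same spots, so no excess is read from the count. At E15, replicate 8 stood apart in the log2 knockout over control of Vim (0.74, with the next value 0.03) and of Sox2 (-1.22, with the next value -0.32), and its knockout animal had the lowest Pax6 signal, 140.02 units against 227 in the next. E15 knockout 3 had the highest Prom1 signal, 167 units against 126 in the next.

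At P1, knockout 3 had the lowest Tead2 signal, 109 units against 142 in the next. P1 control 2 had the highest Hes1 signal, 79.2 units against 68.5 in the next, and the log2 knockout over control of Hes1 in the replicate read against it was -0.21, with the next value 0.0036.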

How the results depend on the processing

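The lower levels of Vim, Nes, Tead2 and Prom1 and the higher level of Slc1a3 at P1 kept their direction in controls under the alternatives run. Dim probes (Hes1, Prom1) are limited by the offset, and small effects by the number of arrays. The causes of the shifts below were not tested.

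At E15, 1 feature was called knockout against control with the scanner's processed signals and 1 with the deposited ratios, and 0 to 1 when single replicates were left out. At P1 and for the difference between the ages, 0 to 0 were called. In the age comparison, leaving out single animals gave 6557 to 8873 called features in controls, of which 6 to 8 of the 10 genes, and 4189 to 6727 in knockout animals, with 6 to 7 of the 10. With the replicate number as a block, the control comparison called 4769 features and 6 of the 10 genes, Hes5 had 0.10 in controls and -0.10 in knockout animals, the difference between the ages for Hes5 was -0.41, and Pax6 in knockout animals was called at -0.58 (adjusted p = 0.024). The numbers do not pair animals across ages. Without the pairing of channels on an array, E15 Fabp7 was -0.021 and Hes5 -0.0053.

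In the age comparison of knockout animals, 3729 features were called higher at P1 than at E15 with outlier spots kept, against 2336 with them left out. With the mean over probes, 5 of the 10 genes were called in that age comparison, Vim no longer among them.

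Directions of uncalled values also turned. The P1 against E15 change of Hes5 in knockout animals was -0.25 with processed signals, -0.032 with quantile scaling and -0.32 with 75th percentile scaling, and that of Sox2 in controls was 0.0046 with quantile scaling. The age difference was 0.10 for Hes1 with processed signals and with the deposited ratios, and -0.038 for Vim with outlier spots kept. Knockout over control at E15 was -0.023 for Fabp7 and 0.017 for Sox2 within scan day 3, and -0.018 for Slc1a3, -0.29 for Pax6, -0.42 for Hes5 and -0.13 for Prom1 within scan days 1 and 2. All P1 arrays were scanned on 1 day, so a block by day could not be fitted there. With only replicates read in both orientations, E15 Pax6 was -0.036, Hes5 -0.23 and Prom1 -0.072. With E15 replicates 2, 3, 5, 6 and 7 only, Slc1a3 was -0.045. With P1 replicates 2 and 4 only, Nes was 0.064, Vim 0.42, Fabp7 0.082, Slc1a3 0.21 and Prom1 0.0020.

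Leaving out single replicates gave knockout over control at P1 from -0.12 to 0.042 for Nes, -0.25 to 0.28 for Vim, -0.10 to 0.17 for Pax6, -0.060 to 0.024 for Hes1 and -0.032 to 0.0045 for Prom1. At E15 it gave -0.10 to 0.17 for Fabp7, -0.19 to 0.027 for Sox2 and -0.11 to 0.23 for Hes5. The age difference ran from -0.15 to 0.38 for Vim, -0.25 to 0.056 for Pax6, -0.034 to 0.050 for Hes1 and -0.10 to 0.24 for Hes5. The P1 against E15 change ran from -0.10 to 0.13 for Sox2 in controls and from -0.12 to 0.11 for Hes5 in knockout animals.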

Other observations

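Lists of cells that arise from radial glia were also compared between P1 and E15 controls, where 22.8% of all features were called lower and 11.8% higher. Of 8 genes of intermediate progenitors, the dividing daughters of radial glia that make neurons, 6 were lower at P1 (median -0.64), led by Gadd45g, a stress and differentiation gene, at -1.42 (SE 0.26, adjusted p = 0.0026, limma). Of 12 genes of neurons, 8 were higher (median 1.07). Of 8 genes of the oligodendrocyte lineage, 2 were higher (median 0.25), led by Olig1, a transcription factor of that lineage, at 1.28 (SE 0.17, adjusted p = 5.0e-04). Of 3 tested genes of ependymal cells, which line the ventricles, 0 were called (median -0.58). In knockout animals 15.3% of all features were called lower and 9.58% higher. There the same lists had 4 of 8 lower (intermediate progenitors, median -0.53), 6 of 12 higher (neurons, 0.66), 2 of 8 higher (oligodendrocyte lineage, 0.32) and 0 of 3 called (ependyma, -0.08).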
